A study of Mus musculus with 18 samples.

Results

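The genes described here encode the receptors for the myeloid colony-stimulating factors and 2 of the ligands: Csf1r, Csf2ra, Csf2rb, Csf2rb2, Csf3r, Csf1 and Csf2. They were chosen by name, as a family, and make up 7 of the 23337 gene symbols in the count table. All 7 were present, and all 7 passed the filter on low counts that left 17143 genes for testing. Read counts were measured in 18 RNA-seq libraries made from white blood cells of the diseased artery wall. The source was male and female C57BL/6 mice with the genotype Apoe-/- Cx3cr1GFP Cd11cYFP, 7 months old, of which 5 months were spent on Western Diet. Every group carried the same alleles and the same diet, so no library is a healthy control. Live cells bearing CD45, the surface protein shared by leukocytes, were taken from digested aortas and carotid arteries and divided by fluorescence. The GFP group (n = 6) was positive for GFP alone, the DP group (n = 4) for both reporters, the YFP group (n = 5) for YFP alone and the DN group (n = 3) for neither.

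Mice without Apoe, the gene of a lipoprotein that clears remnant particles, develop atherosclerosis on a fatty diet. In Cx3cr1GFP mice the green protein is made from the locus of Cx3cr1, a chemokine receptor of monocytes and macrophages. In Cd11cYFP mice the yellow protein is driven by the promoter of Itgax, the gene of CD11c, which dendritic cells and many plaque macrophages make. The labels do not say whether a library came from 1 mouse or several, nor whether replicates of a group are separate animals, so each p-value speaks of the spread among libraries, which may be technical. In sorted bulk samples, fewer cells of a type and less RNA per cell cannot be told apart.

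CSF1R is a receptor tyrosine kinase that binds M-CSF (the product of Csf1) and IL-34, and monocytes and macrophages need its signal to survive. GM-CSF (the product of Csf2) binds a receptor built from a specific alpha chain, encoded by Csf2ra, and a common beta chain, encoded by Csf2rb, which signals through JAK2 and STAT5. Mice carry a second beta chain gene, Csf2rb2, whose product serves the IL-3 receptor. Csf3r encodes the receptor for G-CSF, the main growth factor of neutrophils. In atherosclerosis the M-CSF pathway is known for sustaining lesional macrophages, and GM-CSF for acting on macrophages and dendritic cells in the intima.

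Total counts ran from 9790946 to 27742113 per library, except in YFP replicate 6, which had 289166. Transcripts of the reporter genes went against the sort label in 5 libraries. The libraries labelled DP 4 and DP 5 had 9.43 and 0.427 CPM (read counts scaled to library size) of Cx3cr1 and 38.6 and 47.8 CPM of Itgax, all below every GFP library. The libraries labelled DN 3 and DN 6 had 142 and 134 CPM of Cx3cr1 and 332 and 297 CPM of Itgax, whereas DN 1 had 4.09 and 11.4 CPM. The library labelled YFP 6 had 104 CPM of Cx3cr1, within the GFP range of 80.9 to 165 CPM, and 89.6 CPM of Itgax, below every GFP library. Macrophage markers (6 genes, summed) were lowest in DN 1 at 991 CPM and highest in YFP 5 at 86003 CPM, and Ptprc, the gene of CD45, lay between 439 and 1248 CPM in every library. Neutrophil markers (7 of 8 listed genes matched) summed to 32392 CPM in the library labelled DP 5, 2555 CPM in DP 4 and 1258 CPM in DN 1, against 10.9 to 206 CPM in the GFP libraries. Fibroblast markers (6 genes) summed to 11323 CPM in DP 4 and 10403 CPM in YFP 1, against 227 to 1019 CPM in GFP. Between 19245 and 21972 genes had reads in libraries numbered 1 and 2, against 13150 to 18961 in the rest, so fits within each number set are given where they differ.

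Csf2rb and Csf2rb2 lie close together on mouse chromosome 15 (mm10), on opposite strands, at chr15:78325752-78353847 and chr15:78282507-78305721. Their coding sequences of 2688 and 2634 bp, each spread over 13 coding exons, matched at 2503 of 2628 aligned bases, or 95.24%. Because reads from a stretch that both genes share cannot be assigned to either, 2 pairs of coding windows of 90 bases are shown, the most alike and the least alike, as transcribed. Capitals mark the bases that differ between the genes, and GENCODE vM21 supplied the transcripts. The first pair, from chr15:78341658-78341747 (plus strand, exon 9) and chr15:78291563-78291652 (minus strand, exon 8), has no mismatch.
Csf2rb, most alike: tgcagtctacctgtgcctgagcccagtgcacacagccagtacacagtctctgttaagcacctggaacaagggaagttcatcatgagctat
Csf2rb2, most alike: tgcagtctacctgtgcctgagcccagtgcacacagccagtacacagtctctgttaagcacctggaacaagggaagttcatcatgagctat
The second pair, from chr15:78338897-78338986 (plus strand, exon 5) and chr15:78294345-78294434 (minus strand, exon 4), has 16 mismatches and an identity of 82.2%.
Csf2rb, least alike: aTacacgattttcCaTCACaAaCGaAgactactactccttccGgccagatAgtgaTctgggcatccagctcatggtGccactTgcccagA
Csf2rb2, least alike: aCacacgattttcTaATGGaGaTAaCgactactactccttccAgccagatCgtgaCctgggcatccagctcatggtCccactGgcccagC
Over the whole longest transcripts, 892 windows of 50 bases occurred in both genes, 18.39% of those of Csf2rb and 19.02% of those of Csf2rb2. With windows of 100 bases the shares were 6.957% and 7.197%. Counts of either beta chain gene are therefore uncertain where reads fell in shared stretches.

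The other genes stand apart from one another in the genome. In mm10, Csf2ra lies on chromosome 19 at 61223957 to 61228429 (minus strand) and Csf3r on chromosome 4 at 126024550 to 126044440 (plus strand). Csf1 lies on chromosome 3 at 107741048 to 107760469 (minus strand), Csf2 on chromosome 11 at 54247271 to 54249667 (minus strand), and Csf1r on chromosome 18 (plus strand). Exons of Csf1r overlap those of Hmgxb3 on the other strand over 873 bp, and exons of Csf2 overlap those of Gm12223 on the other strand over 96 bp. Reads there cannot be told apart unless counting used the strand, which is not given in the sources used here.

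Csf1r was the most abundant member per length. Its mean over the 18 libraries was 436 CPM per kb of exon, followed by Csf2ra at 152, Csf3r at 35.8, Csf2rb at 34.6, Csf2rb2 at 17.8, Csf1 at 16.9 and Csf2 at 5.34 CPM per kb. The level of Csf1r per kb exceeded that of Csf2ra in 16 of 18 libraries, the exceptions being DN 1 and YFP 1. Csf2ra exceeded Csf2rb in 18 of 18 libraries, so transcripts of the alpha chain outnumbered those of the common beta chain in each library. Csf3r and Csf2rb held no fixed order: Csf3r was higher in 10 of 18, and with the longest transcript as the length the means were 37.1 and 51.4 CPM per kb, in the other order. Csf2rb2 was above Csf1 in 15 of 18 libraries, and their means, which differed by less than their spread, were also in the other order with the longest transcript, at 17.8 and 21.4 CPM per kb.

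**Figure D1:**
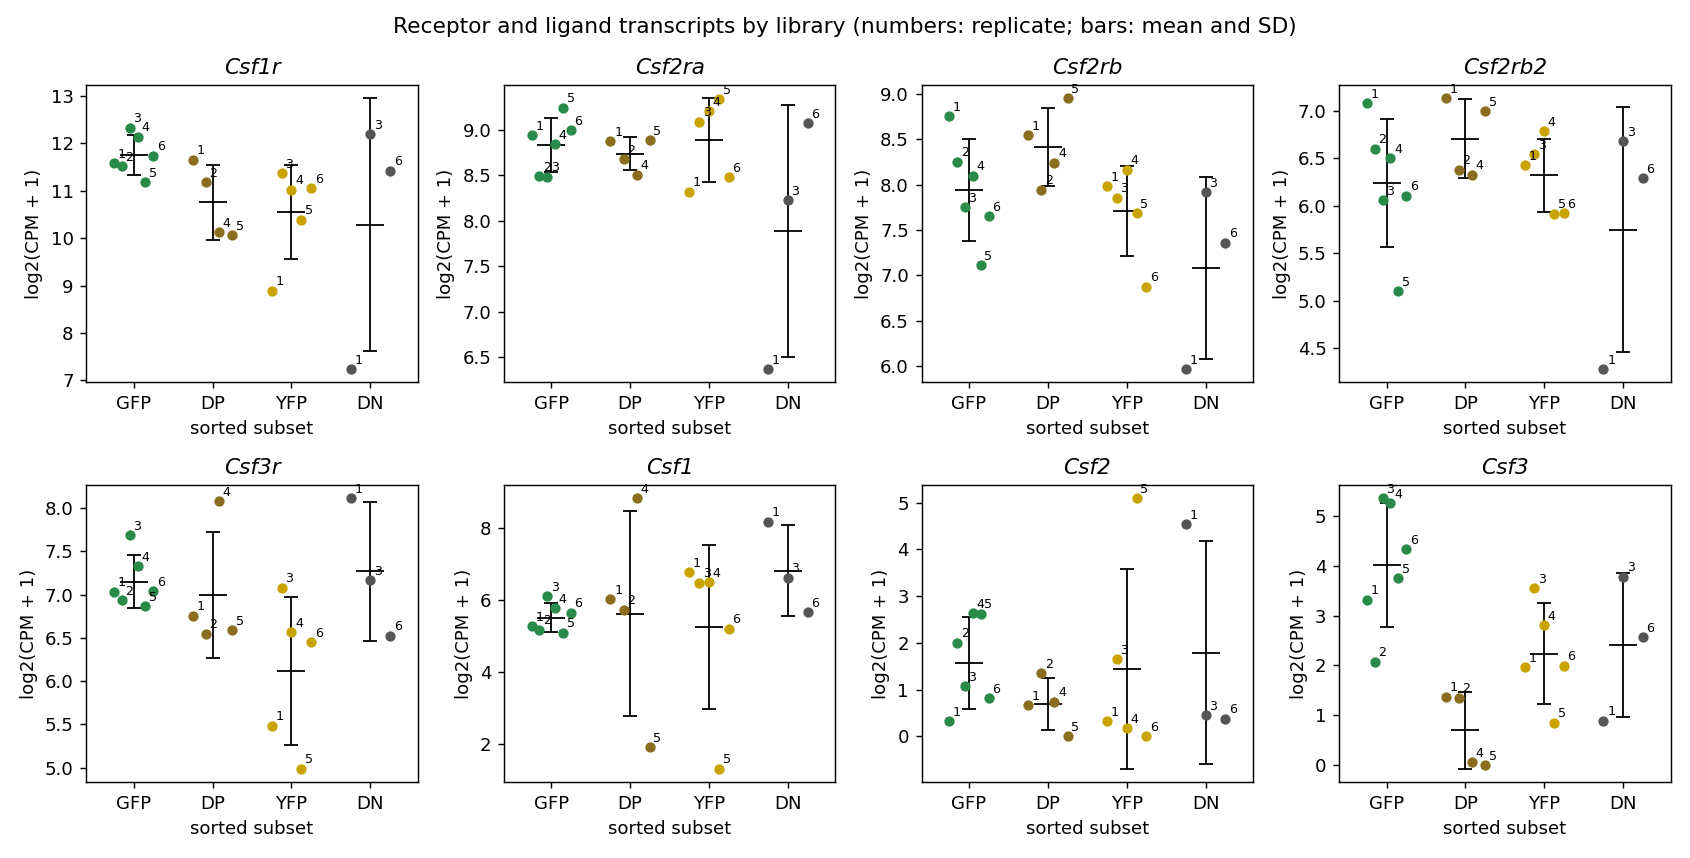
Level of each member, and of Csf3, in every library as log2(CPM + 1), by sorted group; numbers are replicates, and bars give the mean and SD of the plotted values. The libraries DN 1, DP 4, DP 5 and YFP 5 lie far from their groups for several genes, while the 6 GFP libraries lie close together for Csf1r, Csf3r and Csf1.

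None of the members passed the threshold in any comparison of the sorted groups. With edgeR's quasi-likelihood test and Benjamini-Hochberg adjustment over 17143 genes, 0 of 7 were called between YFP and GFP, where 0% of all genes were called. Between DP and GFP 0 of 7 were called, against 0.198% (34 genes) of all genes. The count was also 0 of 7, against 0% of all genes, between YFP and DP, between GFP and DN, between DP and DN and between YFP and DN. In the test over all 4 groups together 0 of 7 were called, against 0.332% (57 genes). DESeq2 and limma voom, which called 186 and 462 genes between YFP and GFP, called 0 of 7 in each of these comparisons as well.

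At an unadjusted p under 0.05 there were 0 of 7 members between YFP and GFP (7.02% of all genes, or 1203), 0 of 7 between DP and GFP (6.84%, or 1172) and 0 of 7 between GFP and DN (1.35%, or 231). There was 1 between YFP and DP (Csf2, with 6.73% of all genes, or 1154, at that level), 1 between YFP and DN (Csf3r, with 2.69%, or 461) and 2 between DP and DN (Csf2rb and Csf2, with 2.71%, or 464). Over the 4 groups together there were 0 of 7, with 6.96% of all genes. The count between YFP and GFP depended on the method. With limma voom 2 of 7, Csf1r and Csf3r, were at that level, as were 2164 of 17143 genes. The same 2 were with only the groups compared (1347 of 13226 genes) and with the replicate block (926 of 17143 genes). With DESeq2, its size factors or no filter it was 0 of 7. The median log2 fold change of the 7 members between YFP and GFP was 0.01, beside 0.04 over all genes tested, and between DP and GFP it was -0.03, beside 0.20.

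Csf1r had its highest mean in the GFP group. The GFP libraries held 2326 CPM at the lowest, a median of 3240 CPM and 5148 CPM at the highest. The YFP libraries 1, 3, 4, 5 and 6 held 474, 2649, 2075, 1339 and 2126 CPM. All but 1 of the YFP libraries (replicate 3) fell below the lowest GFP library, so the groups overlapped through that library alone. The mean was 3567 ± 1063 CPM (SD, n = 6) in GFP and 1732 ± 844 CPM (SD, n = 5) in YFP. YFP against GFP gave a log2 fold change of -1.04 ± 0.58 (SE), with a 95% interval from -2.24 to 0.16 and an adjusted p of 0.794.

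Within the number sets the sign of that Csf1r difference was the same, but its size was not. Among libraries numbered 1 and 2 (1 YFP and 2 GFP libraries, the lone library being assumed to vary like the others) the log2 fold change was -2.49, with an adjusted p of 0.000111. In that subset 7.83% of all genes were called between YFP and GFP, and 2 of 7 members, Csf1r and Csf1. Among libraries numbered 3 to 6 (4 against 4) the log2 fold change of Csf1r was -0.86, with an adjusted p of 0.664, and 0 of 7 members were called, against 0% of all genes. Without the 5 libraries that went against their labels, chosen as an alternative after the data were seen, it was -1.12, with an adjusted p of 0.364. The library that carried the first value, YFP 1, also had 10403 CPM of fibroblast markers and 0.930 CPM of Cx3cr1. The part of those markers in the Csf1r difference was not tested.

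In the other groups Csf1r followed single libraries. The libraries labelled DP 1, 2, 4 and 5 held 3219, 2322, 1121 and 1067 CPM, and the 2 libraries whose reporter transcripts went against the label were the lower ones. The log2 fold change of DP against GFP was -0.88 ± 0.62 (SE), -0.10 without those libraries and the 2 DN libraries that went against their label, and -0.37 when YFP 6 was left out as well. DN 1, 3 and 6 held 150, 4675 and 2744 CPM. The level in DN 1, which had the fewest macrophage markers, was the lowest of the 18, and the log2 fold change of GFP against DN was 0.50 ± 0.68 (SE), but -0.08 without DN 1 and 4.59 without the 5 libraries, where DN 1 alone stood for DN.

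**Figure D2:**
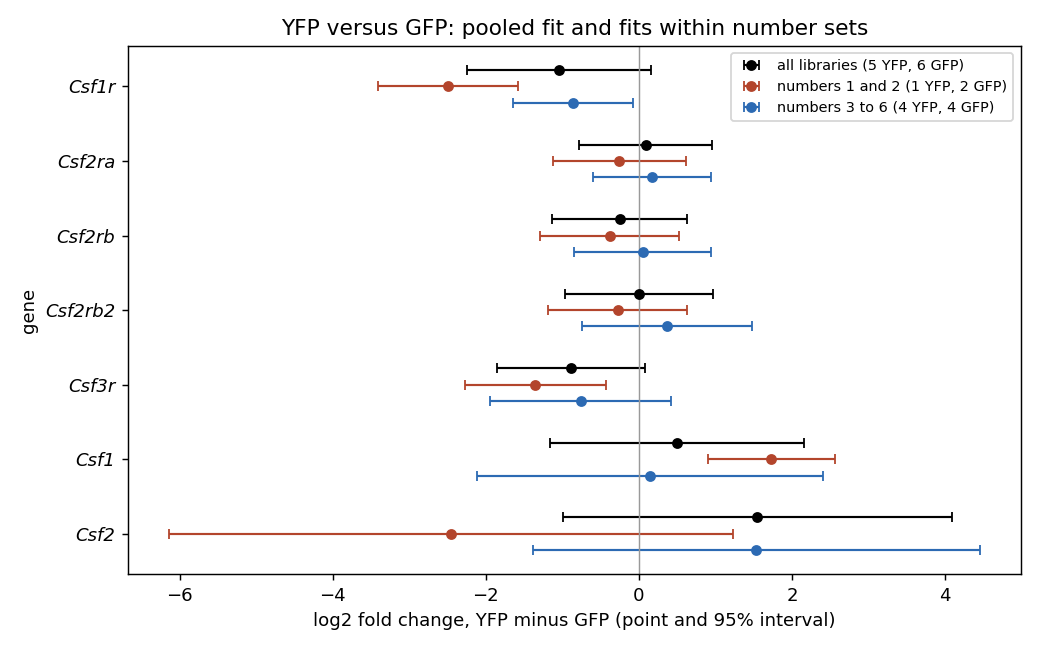
Log2 fold change of YFP against GFP for each member, with 95% intervals from edgeR, in the fit of all 18 libraries and in fits of libraries numbered 1 and 2 or 3 to 6. Csf1r is below 0 in each fit, at -1.04, -2.49 and -0.86, and the intervals of Csf2ra, Csf2rb and Csf2rb2 cross 0 in each.

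The GM-CSF receptor alpha chain gene, Csf2ra, was at a like level in the GFP, DP and YFP groups after TMM scaling. It spanned 1.69-fold, 1.30-fold and 2.03-fold within them. The GFP libraries spanned 357 to 604 CPM with a median of 474 CPM. The DP libraries 1, 2, 4 and 5 held 468, 409, 363 and 472 CPM, a 1.30-fold span. That evenness rests on the scaling: DP 5 held 4429 of 17601365 counts, and DP 1 held 5627 of 10644558. YFP 1, 3, 4, 5 and 6 held 318, 544, 590, 647 and 355 CPM. These 3 groups overlapped throughout, with means of 463 ± 94.6 (SD, n = 6), 428 ± 52.4 (SD, n = 4) and 491 ± 146 CPM (SD, n = 5). DN 1, 3 and 6 held 81.7, 298 and 538 CPM, and DN 1 was the lowest of the 18 libraries, as for Csf1r. YFP differed from GFP by a log2 fold change of 0.09 ± 0.42 (SE), with a 95% interval from -0.78 to 0.95 and an adjusted p of 0.989. Its sign turned among libraries numbered 1 and 2, where it was -0.25.

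Csf2rb, the common beta chain gene, had its highest mean in the DP group. GFP libraries spanned 137 to 431 CPM with a median of 244 CPM. DP 1, 2, 4 and 5 held 373, 246, 302 and 495 CPM. The highest CPM of all 18 libraries was in the library labelled DP 5, which also had 32392 CPM of neutrophil markers. Whether those markers have a part in that level was not tested. The rank of DP 5 rests on the TMM scaling, since it held 4637 of 17601365 counts, against 8779 of 16858501 in GFP 1. YFP 1, 3, 4, 5 and 6 held 252, 231, 286, 205 and 116 CPM, all within the GFP range apart from YFP 6, the shallow library.

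DN 1, 3 and 6 held 61.5, 241 and 163 CPM of Csf2rb. This was the only member and pair of groups without overlap: the lowest DP library, at 246 CPM (245.5), lay just above the highest DN library, at 241 CPM (240.7), while 1.43% of all genes had groups without overlap between DP and DN. In the other pairs 0 of 7 members were without overlap, where the shares of all genes were 0.834% (YFP and GFP), 1.32% (DP and GFP), 0.793% (YFP and DP), 1.48% (GFP and DN) and 0.951% (YFP and DN). The log2 fold change of DP against DN was 1.19 ± 0.56 (SE), with an unadjusted p of 0.0424 and an adjusted p of 0.9998. It was 0.79 without DN 1, 2.03 without DN 3 and 2.34 without the 5 libraries that went against their labels, which hold 4 of the 7 compared here. Between YFP and GFP it was -0.25 ± 0.43 (SE), with a 95% interval from -1.13 to 0.63 and an adjusted p of 0.977. The sign turned among libraries numbered 3 to 6, where it was 0.05.

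Csf2rb2, the second beta chain gene, lay below Csf2rb in 18 of 18 libraries per kb. GFP libraries spanned 33.3 to 134 CPM with a median of 78.6 CPM. DP 1, 2, 4 and 5 held 139, 82.2, 79.3 and 126 CPM, and YFP 1, 3, 4, 5 and 6 held 85.0, 92.3, 109, 59.3 and 59.7 CPM. All DP and YFP values but that of DP 1 lay within the GFP range. DN 1, 3 and 6 held 18.5, 101 and 77.2 CPM. YFP differed from GFP by a log2 fold change of 0.01 ± 0.47 (SE), with a 95% interval from -0.96 to 0.97 and an adjusted p of 0.999, and its sign turned without GFP 5, where it was -0.08.

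As a share of the counts of Csf2rb, those of Csf2rb2 were 24.2% to 33.8% in GFP, 25.6% to 37.3% in DP, 28.9% to 51.3% in YFP and 30.0% to 47.3% in DN. Across the 18 libraries the levels of both genes had a Pearson r of 0.915 on the log2(CPM + 1) scale, the largest among the members. The pair shares sequence, as printed above, so part of their reads may be common to both.

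Csf3r, the G-CSF receptor gene, was lower on average in YFP than in GFP, without passing the test. GFP libraries spanned 116 to 205 CPM with a median of 130 CPM. YFP 1, 3, 4, 5 and 6 held 43.8, 134, 93.6, 30.7 and 86.6 CPM, and replicate 3 alone reached the GFP range. The means were 144 ± 33.6 CPM (SD, n = 6) in GFP and 77.8 ± 41.5 CPM (SD, n = 5) in YFP. Their log2 difference in the fit was -0.89 ± 0.47 (SE), with a 95% interval from -1.86 to 0.08 and an adjusted p of 0.764. It was -1.35 (adjusted p of 0.0615) among libraries numbered 1 and 2 and -0.76 (adjusted p of 0.927) among those numbered 3 to 6.

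The highest Csf3r levels were in DN 1, at 276 CPM, and in the library labelled DP 4, at 269 CPM. The other DP libraries, 1, 2 and 5, held 107, 92.6 and 95.1 CPM, and DN 3 and 6 held 142 and 91.0 CPM. Neutrophils are the cells best known for this receptor. Their markers summed to 1258 CPM in DN 1, 2555 CPM in DP 4 and 32392 CPM in DP 5, and their part in the Csf3r levels was not tested. Elane was at 0 in GFP 4, GFP 6, YFP 3, YFP 6 and DN 6, and Mpo was also at 0 in GFP 6 and DN 6. The 7 matched neutrophil markers all had reads in the other libraries. The log2 fold change of YFP against DN was -1.13 ± 0.55 (SE), with an unadjusted p of 0.0495 and an adjusted p of 0.9999. Within libraries numbered 3 to 6, where both DN libraries went against their label, it was -0.39.

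Csf1, the gene of M-CSF, was even in the GFP group and scattered in the others. GFP libraries spanned 33.2 to 67.9 CPM, with a median of 43.5 CPM. DP 1, 2, 4 and 5 held 64.0, 52.1, 453 and 2.77 CPM, a 163-fold span within the group. YFP 1, 3, 4, 5 and 6 held 108, 88.0, 89.2, 1.496 and 35.8 CPM. DN 1, 3 and 6 held 288, 97.7 and 49.4 CPM. The 2 highest libraries, DP 4 and DN 1, were also the highest for Csf3r, and the 2 lowest, YFP 5 and DP 5, had the highest macrophage marker sums, at 86003 and 46586 CPM.

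The 2 libraries highest in Csf1 were each the highest in markers of some other cells. DP 4 had the highest fibroblast marker sum, 11323 CPM. DN 1 had the highest sum of T cell and innate lymphoid cell markers, 1092 CPM, and of B cell markers, 1022 CPM. DP 4 came next to DN 1 in T cell and innate lymphoid cell markers, at 351 CPM. It was close to GFP 1, which had 347 CPM of them and 37.8 CPM of Csf1. In DN 1 all 6 matched T cell and innate lymphoid cell markers had reads, whereas Gata3 was at 0 in GFP 6, YFP 4 and YFP 6 and Cd3e at 0 in DP 5. The part of these cells in the Csf1 levels was not tested. YFP 1, with 10403 CPM of fibroblast markers, held 108 CPM of Csf1, and GFP libraries with 146 to 347 CPM of the T cell and innate lymphoid cell markers held 33.2 to 67.9 CPM. Fibroblast markers summed to 2067 CPM in DN 1 and to 5357 CPM in DP 5, which held 2.77 CPM of Csf1.

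For Csf1 the log2 fold change between YFP and GFP was 0.49 ± 0.81 (SE), with a 95% interval from -1.17 to 2.15 and an adjusted p of 0.977. It was 1.73 (adjusted p of 0.00344) among libraries numbered 1 and 2 and 0.14 among those numbered 3 to 6, and in the fit with a replicate block its sign turned, to -0.54. Between DP and GFP it was 1.63 ± 0.85 (SE), with an adjusted p of 0.806, and -0.22 without DP 4. Between GFP and DN it was -1.65 ± 0.91 (SE), and -0.70 without DN 1.

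**Figure D3:**
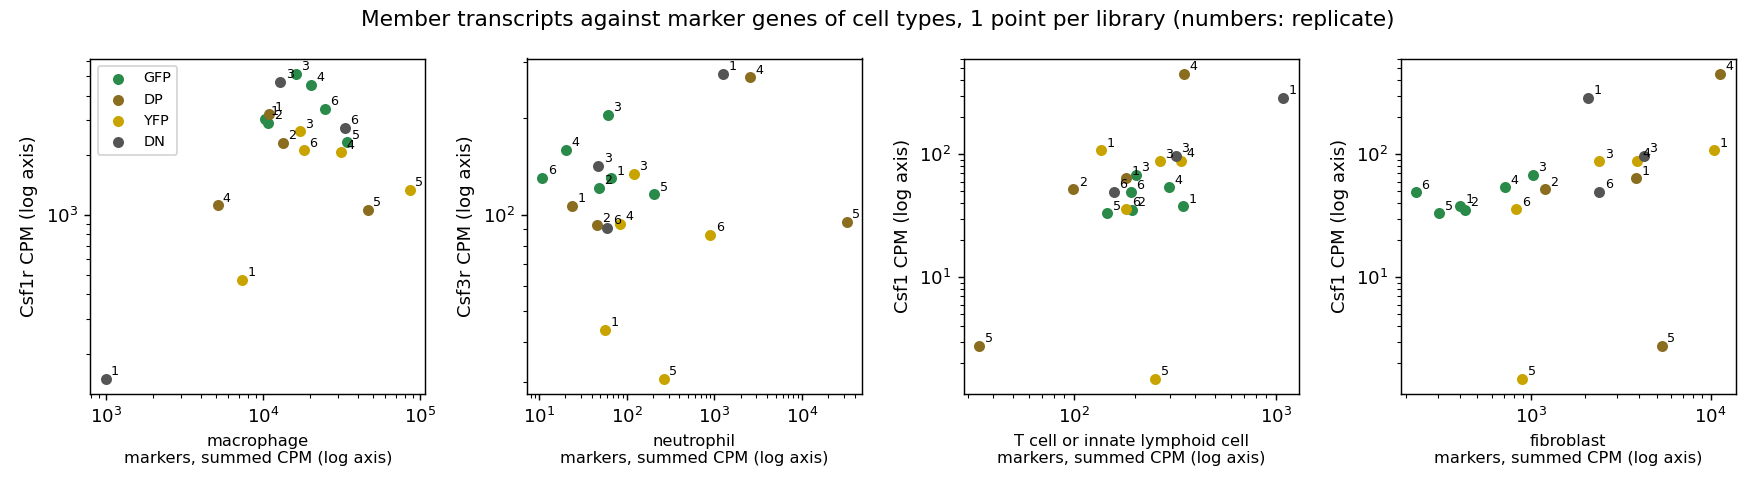
Csf1r, Csf3r and Csf1 (CPM, log axis) against the summed CPM (log axis) of macrophage, neutrophil, T cell or innate lymphoid cell, and fibroblast markers, with 1 point per library and replicate numbers beside the points. DN 1 has the fewest macrophage markers (991 CPM) and the least Csf1r (150 CPM), and DP 5 the most neutrophil markers (32392 CPM) with Csf3r at 95.1 CPM.

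Csf2, the gene of GM-CSF, was low in most libraries and highest in 2. DN 1 held 22.2 CPM, from 962 reads, and YFP 5 held 33.2 CPM, from 333 reads. The GFP libraries spanned 0.246 to 5.21 CPM with a median of 2.05 CPM. DP 1, 2 and 4 held 0.582, 1.55 and 0.665 CPM, and YFP 1, 3 and 4 held 0.245, 2.14 and 0.126 CPM. DN 3 and 6 held 0.366 and 0.294 CPM, from 5 and 4 reads. No read was counted in DP 5 or YFP 6, which allows up to 0.320 CPM in DP 5 but up to 8.96 CPM in YFP 6, where the depth cannot show a level like that of the other libraries. These limits cover counting error only.

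Fold changes of Csf2 rested on those 2 libraries. The log2 fold change was 1.54 ± 1.24 (SE, adjusted p of 0.967) for YFP against GFP and 3.41 ± 1.55 (SE, unadjusted p of 0.0372, adjusted p of 0.685) for YFP against DP. Without YFP 5 both turned, to -1.68 and -0.09. For DP against DN it was -3.43 ± 1.63 (SE, unadjusted p of 0.0449, adjusted p of 0.9998), and 1.02 without DN 1. DN 1 also had the highest sum of T cell and innate lymphoid cell markers, cells known to make GM-CSF, while YFP 5, with 253 CPM of those markers, was within the GFP range of 146 to 347 CPM. The part of such cells in the level of DN 1 was not tested.

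Ratios within a library need no scaling between libraries, and Csf1 tracked Csf1r closely in the GFP group alone. Counts of Csf1 were 1.19% to 1.44% of those of Csf1r in the 6 GFP libraries. They were 1.99%, 2.24%, 40.4% and 0.260% in DP 1, 2, 4 and 5, and 22.8%, 3.32%, 4.30%, 0.112% and 1.69% in YFP 1, 3, 4, 5 and 6. In DN 1 the ligand outnumbered its receptor, at 191%, while DN 3 and 6 held 2.09% and 1.80%. No library of the other groups lay within the GFP range.

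Counts of Csf3r were 3.53% to 4.98% of those of Csf1r in GFP, 3.32%, 3.99%, 24.0% and 8.92% in DP 1, 2, 4 and 5, and 9.24%, 5.06%, 4.51%, 2.29% and 4.07% in YFP 1, 3, 4, 5 and 6. They were 183%, 3.05% and 3.32% in DN 1, 3 and 6, so DP 2, YFP 4 and YFP 6 lay within the GFP range. Counts of Csf2rb were 4.17% to 14.1% of those of Csf1r in GFP, 10.6% to 46.4% in DP, 5.48% to 53.1% in YFP and 5.15% to 40.9% in DN. For Csf2ra the shares were 6.94% to 25.97%, 14.5% to 44.3%, 16.7% to 67.2% and 6.37% to 54.3%. The highest share of Csf2ra in each of these ranges came from a library low in Csf1r.

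Of the 3 ratios compared between YFP and GFP, none differed beyond the spread between libraries in a two-sided exact permutation test over 462 splits. The log2 ratio of Csf2rb to Csf1r was -2.83 ± 1.22 (SD, n = 5) in YFP and -3.82 ± 0.64 (SD, n = 6) in GFP, a difference of 0.98 with an exact p of 0.123 (0.370 adjusted over the 3 ratios). The log2 ratio of Csf3r to Csf1r differed by 0.16, with an exact p of 0.593 (adjusted 0.593). That of Csf2ra to Csf2rb differed by 0.28, with an exact p of 0.5 (adjusted 0.593). Csf1r and Csf3r, both lower on average in YFP, thus had a like mean ratio to each other in both groups. The single libraries were less alike, since the SD of that log2 ratio was 0.72 in YFP and 0.17 in GFP. The small difference of the means turned to -0.09 without YFP 1.

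**Figure D4:**
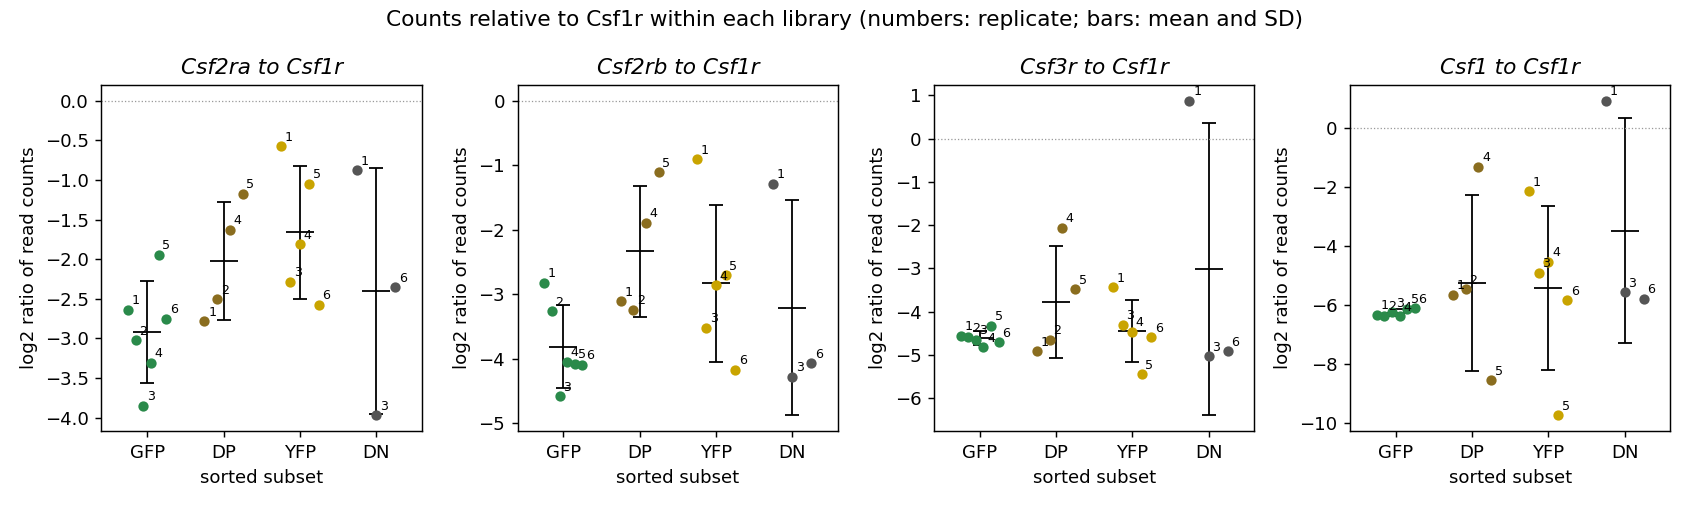
Log2 ratio of the counts of Csf2ra, Csf2rb, Csf3r and Csf1 to those of Csf1r within each library, by sorted group, with the mean and SD as bars and a dotted line at equal counts. The 6 GFP libraries lie close together for Csf3r and Csf1, and DN 1 lies above the dotted line for both, at 183% and 191% of the Csf1r counts.

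Other ligands and receptors of the family and its relatives gave 0 called genes of 11 tested (12 listed, Il3 untested) in each of the 6 pairs of groups. Of all genes 0.198% were called between DP and GFP and 0% in the other pairs, where no list could have had a call. Between YFP and GFP 8 were higher and 3 lower, with a median log2 fold change of 0.80 beside 0.04 over all genes, and between DP and GFP 6 were higher and 5 lower. The most abundant was Sdc1, a proteoglycan that binds IL-34, at 96.6 ± 44.4 CPM (SD, n = 6) in GFP and 168 ± 105 CPM (SD, n = 5) in YFP. Kitl, the ligand of KIT, had means of 19.6 and 29.3 CPM there, and Flt3, a dendritic cell growth factor receptor, 12.5 and 24.4 CPM. Il5ra, which pairs with the common beta chain to bind IL-5, averaged 1.75 CPM in GFP and 45.3 ± 66.5 CPM (SD, n = 4) in DP, with the highest value, 144 CPM, in DP 5, the library with 10179 CPM of eosinophil, mast cell and basophil markers.

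Csf3, the gene of G-CSF, was singled out after its values were seen. GFP libraries held 3.21 to 39.9 CPM with a median of 15.8 CPM, and DP 1, 2, 4 and 5 held 1.58, 1.55, 0.0415 (1 read) and 0 CPM, the last allowing up to 0.320 CPM. The groups did not overlap, as was the case for 1.32% of all genes between DP and GFP. The log2 fold change was -4.67 ± 1.19 (SE), with an unadjusted p of 0.000607 and an adjusted p of 0.0862 in edgeR. The adjusted p was 0.000201 with DESeq2, 0.00872 with limma voom, 0.0241 among libraries numbered 3 to 6 and 0.0484 without YFP 5, but 0.326 among libraries numbered 1 and 2, where neither DP library went against its label. It was 0.929 with the replicate block, where the log2 fold change was -4.08, and 0.99998 without DP 4, DP 5, DN 3 and DN 6, where it was -3.36. YFP 1, 3, 4, 5 and 6 held 2.89, 10.7, 5.98, 0.798 and 2.99 CPM, the last from 1 read, and DN 1, 3 and 6 held 0.856, 12.8 and 4.92 CPM. Il34, the second ligand of CSF1R, averaged 0.358 CPM in GFP, 1.2 CPM in DP and 0.793 CPM in DN. In YFP it was 0 to 0.539 CPM in 4 libraries and 14.9 CPM, from 5 reads, in the shallow YFP 6.

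Signalling genes of the receptors gave 0 called genes of 16 (the JAK-STAT arm) and 18 (the kinase arm of CSF1R) in each of the 6 pairs. Transcription factors of myeloid receptor genes, which act on the receptor genes themselves, gave 0 of 13 in each pair. The shares of all genes were again 0.198% between DP and GFP and 0% in the other pairs. Between YFP and GFP the JAK-STAT genes were higher in 4 and lower in 12, with a median log2 fold change of -0.32. The kinase arm was higher in 5 and lower in 13, with a median of -0.40, and the transcription factors were split 6 to 7, with a median of -0.00. The all-gene median was 0.04. Socs3, a feedback inhibitor of cytokine receptors including that for G-CSF, led the JAK-STAT genes with 1879 ± 500 CPM (SD, n = 6) in GFP and 1374 ± 688 CPM (SD, n = 5) in YFP. Mcl1, a survival factor, had means of 1190 and 1124 CPM in those groups, the phosphatase gene Ptpn6 609 and 487 CPM, and Stat3 498 and 357 CPM.

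In the kinase arm, Tyrobp, an adaptor that works with CSF1R, ranged most, with 877 ± 413 CPM (SD, n = 6) in GFP and 1717 ± 2278 CPM (SD, n = 5) in YFP. Akt1 was nearly level, with group means from 283 to 304 CPM. Inpp5d, a lipid phosphatase that restrains the pathway, averaged 323 CPM in GFP and 204 CPM in YFP. Among the transcription factors, Spi1, which drives Csf1r and other myeloid receptor genes, averaged 539 ± 149 CPM (SD, n = 6) in GFP and 580 ± 372 CPM (SD, n = 5) in YFP. Cebpb averaged 1647 and 1612 CPM, and Ets2 320 and 221 CPM.

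Genes known to be induced by GM-CSF in macrophages and dendritic cells gave 0 called genes of 12 in each pair. Of all genes 0.198% were called between DP and GFP and 0% in the other pairs. Without DP 1, 1 of the 12 was called between DP and GFP, as were 189 of 17125 genes. Between YFP and GFP 9 were higher and 3 lower, with a median log2 fold change of 0.77 beside 0.04 over all genes, and between DP and GFP 11 were higher and 1 lower, with a median of 0.56 beside 0.20. At an unadjusted p under 0.05 there were 3 of 12 higher in YFP than in GFP (Car4, Fabp4 and Itgax; 6.59% of all genes) and 3 of 12 higher in DP than in GFP (Car4, Fabp4 and Cd209a; 6.66% of all genes), named after their values were seen. The list includes Itgax, whose promoter drives the YFP used for sorting. Its direction between YFP and GFP, and between DP and GFP, is therefore not independent of the sort. Markers of some other cells moved the same way. Dendritic cell markers (6 genes, of which Cd209a is also on this list) summed to 33.7 to 316 CPM in GFP, 68.7 to 521 CPM in YFP and 41.6 to 661 CPM in DP. Fibroblast markers summed to 227 to 1019, 824 to 10403 and 1185 to 11323 CPM. Mean endothelial sums were 34.9, 96.0 and 58.8 CPM, and mean smooth muscle sums 169, 239 and 1259 CPM. Not every set did so: mean monocyte sums were 2048, 1600 and 2131 CPM, and mean T cell and innate lymphoid cell sums 230, 236 and 167 CPM. Clec9a, a defining dendritic cell marker, was at 0 in GFP 6, YFP 5 and YFP 6, and Flt3 at 0 in YFP 6. The part of any of these cells in the levels of this list was not tested. Itgax averaged 153 ± 36.3 CPM (SD, n = 6) in GFP and 453 ± 407 CPM (SD, n = 5) in YFP. Il1rn, the gene of the interleukin-1 receptor antagonist, averaged 2078 and 1833 CPM, Dcstamp, a cell fusion protein, 87.1 and 128 CPM, and Cd209a, a lectin of dendritic cells, 34.5 and 67.2 CPM.

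The genes whose levels were most like each member across the 18 libraries were ranked by Pearson r of log2(CPM + 1) among 6439 genes. For Csf1r they were Klf10 (0.942), Dab2 (0.942) and Atf3 (0.940), and for Csf2ra Pdgfa (0.937), Mid1ip1 (0.924) and Trem2 (0.922). For Csf3r they were Lbr (0.928), Mxd1 (0.921) and Pde2a (0.873), and for Csf1 Rora (0.939), Stat4 (0.928) and Ormdl3 (0.926), of which Rora is on the list of T cell and innate lymphoid cell markers. The closest genes were less alike for Csf2rb, with B4galt5 at 0.790, Zeb2 at 0.768 and Asap1 at 0.765. For Csf2rb2 they were Fam102b (0.802), B4galt5 (0.800) and Tns3 (0.793), so B4galt5 was among the 3 closest to both beta chain genes. For Csf2 they were Ltb4r1 (0.797), Arrdc1 (0.782) and Ppm1g (0.758).

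These correlations describe the libraries, which differ in cell content and depth, and the libraries that stand apart weigh on them. Without DP 4, DP 5, DN 3 and DN 6, 1 of the 3 closest genes was shared with the full ranking for Csf1r, Csf2ra, Csf2rb, Csf2rb2 and Csf1, 2 for Csf3r and 0 for Csf2. Without YFP 6 alone, 3 of 3 were shared for Csf1r and Csf2rb2, 2 for Csf2ra, Csf2rb, Csf3r and Csf2, and 1 for Csf1. Among the members themselves, r was 0.649 between Csf1r and Csf2ra and 0.655 between Csf3r and Csf1.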

How the data were processed

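RNA was made into cDNA with the SMART-seq v4 kit and into libraries with Nextera XT, per the labels' protocols. The table deposited by the authors holds whole-number read counts per gene symbol and library. TopHat 1.4.1, SAMtools, HTSeq 0.7.1 and mm10 are named in the submitters' processing notes; the annotation and the strand setting are not given in the sources used here. Replicate libraries of a group differed beyond sampling noise, so each counted once.

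From these counts, genes were filtered with filterByExpr by group, scaled by TMM and fitted in 1 model of all 18 libraries with edgeR 4.0.16 (R 4.3.3; robust quasi-likelihood, 1 mean per group). Benjamini-Hochberg adjustment covered all 17143 tested genes at 0.05, and CPM values use the TMM-scaled library sizes. The upper limit behind a count of 0 is 3 reads, and intervals are at 95%. Ratios are log2 of counts plus 0.5, tested by exact permutation over libraries. Lengths are unions of exons in GENCODE vM21 (mm10). Ly6g, Trac, Trbc2 and Siglecf among the markers were not matched, and Spi1 and Adgre1 were matched by older symbols. Each list named its 4 most abundant genes over the 18 libraries, of which some are not reported here; each member named its 3 most alike genes of at least 20 CPM, predicted genes left out. Members and lists were chosen with earlier results of these data known. Alternatives were DESeq2 1.42.0, its size factors, limma voom 3.58.1 with sample weights, no filter, only the compared groups, number sets, libraries left out (the fit without all 5 that went against their labels was added after seeing the data) and a replicate block. The numbers paired GFP with DN by the rule of a correlation over 0.1 in every pair (3 of 3), and no other pair of groups, where 4 of 5 passed for YFP and GFP and 3 of 4 for DP and GFP. The pair that failed for YFP and GFP was number 6, at -0.006, which holds the shallow YFP 6. Scripts were tested on simulated data.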

Additional observations from a re-analysis of the deposited data

Results flagged for a closer look

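In 4 of the 39 groups of 4 to 10 libraries checked, 1 library stood far from the others, judged by its gap to the next library over the range. The limits used flag about 1 in 20 groups by chance where values are normally spread. CPM values, checked here without a log scale, are skewed, so that rate may not hold for them. Csf3r was 269 CPM in the library labelled DP 4, against 92.6 to 107 CPM in the other DP libraries. The same library held 453 CPM of Csf1, against 2.77 to 64.0 CPM in the others. Csf2 was 33.2 CPM in YFP 5, against 0 to 2.14 CPM in the other YFP libraries. The log2 ratio of Csf2rb2 to Csf2rb was -2.04 in GFP 5, against -1.71 to -1.56 in the other GFP libraries.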

How the results depend on the processing

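No member was called in any pair of groups under any alternative except the fit of libraries numbered 1 and 2. In that fit DN and YFP hold 1 library each. Calls of members there were mostly in pairs with DN, for which DN 1 alone stood, the library with the fewest macrophage markers (991 CPM). They cannot be told apart from traits of that library. The numbers of genes called followed the method and the libraries. Between DP and GFP, 34 genes were called, against 362 with DESeq2, 92 with its size factors, 3445 with limma voom, 62 without the filter, 244 within numbers 1 and 2, 188 within numbers 3 to 6, and 0 with only the groups compared, with the replicate block or without DP 4, DP 5, DN 3 and DN 6. Over the 4 groups, 57 became 429, 135, 1116, 132, 3327 and 165 in the same order of settings, and 0 with the replicate block or without those 4 libraries. Without YFP 6 as well, an alternative chosen after seeing the data, the counts were 55 for YFP against GFP, 0 for DP against GFP, 1 for YFP against DN and 20 over the 4 groups, with Csf3 at 0.87 (log2) for DP against DN. Between YFP and GFP, 0 became 186 with DESeq2, 462 with limma voom, 9 without the filter and 1438 within numbers 1 and 2. With DESeq2 there were 130 for YFP against DP, 30 for DP against DN and 12 for YFP against DN. Within numbers 1 and 2 there were 1496 for YFP against DP, 2296 for GFP against DN, 2584 for DP against DN and 1807 for YFP against DN, and within numbers 3 to 6 there were 9 for YFP against DP and 1 for DP against DN. Leaving out each library in turn gave 0 to 252 genes between DP and GFP, 0 to 253 over the 4 groups and 0 to 11 between YFP and GFP. Between DP and GFP the count was 0 without any 1 of the GFP libraries, DP 4 or DP 5, 189 and 167 without DP 1 and DP 2, 179, 111, 106 and 252 without YFP 1, 3, 4 and 5, 21 without YFP 6, 116 without DN 3 and 16 without DN 6. Over the 4 groups it ran from 0 without DP 5 to 253 without YFP 1 and moved by over 1.5 times without each library other than GFP 6 and YFP 6. The cause was not tested.

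Some log2 fold changes turned sign. Within numbers 1 and 2, YFP against GFP was -0.25 for Csf2ra, -0.28 for Csf2rb2 and -2.46 for Csf2, and YFP against DP was -1.98 for Csf2. Within numbers 3 to 6, Csf2rb was 0.048 for YFP against GFP and Csf2 0.20 for DP against DN. With limma voom, Csf2 was -1.58 for YFP against GFP, -0.53 for YFP against DP and 0.25 for DP against DN. Csf3 for DP against DN was 0.60 without the 4 libraries and 0.72 within numbers 1 and 2. Leaving out 1 library gave ranges from -0.085 to 0.21 for Csf2rb2 and -1.68 to 2.41 for Csf2 (YFP against GFP), -0.22 to 2.22 for Csf1 (DP against GFP), -0.086 to 4.11 for Csf2 (YFP against DP), -0.084 to 1.41 for Csf1r (GFP against DN) and -4.24 to 1.02 for Csf2 (DP against DN). The log2 ratio of Csf3r to Csf1r ranged from -0.093 to 0.41. With the replicate number as a block, Csf1 between YFP and GFP was -0.54. Between GFP and DN, the groups that passed the rule on numbers, Csf1r was 1.28 and Csf1 -0.74. The block changed no member's call. The test over the 4 groups has no value with only the groups compared. The depth of YFP 6 limits what it shows: its 0 reads of Csf2 allow up to 8.96 CPM.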
